A study of Mus musculus with 28 samples.

Results

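The genes described here are 7 G protein-coupled receptors for lipid mediators, out of 53801 features in the expression table, in regulatory T (Treg) cells sorted from glioblastoma (GBM) and spleen. They are *Tbxa2r* (thromboxane A2), *Lpar5* and *Lpar6* (lysophosphatidic acid, LPA), *Ptger2* and *Ptger4* (prostaglandin E2), *Ptgir* (prostacyclin) and *S1pr4* (sphingosine-1-phosphate, S1P). *Tbxa2r* and *Lpar5* were picked for their rise after treatment in GBM, so that rise describes the choice and was not tested, and the other 5 were selected by receptor family. Every one of the 7 genes was found in the table under its symbol.

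Mice carrying CT2A gliomas, a murine GBM line placed in the forebrain, received either the isotype control antibody IgG2a or antibodies against PD1 and GITR together (αPD1 + αGITR), as 4 doses of 250 µg per mouse given every 3 days. Tumors or spleens were taken 2 days after the last dose, and Treg cells were sorted by the gate TCR+ CD4+ CD25hi CD127lo, with CD8 T cells gated out. Spleen gave 7 IgG2a libraries and 8 treated libraries, and GBM gave 5 IgG2a libraries and 7 treated libraries, 27 in all. By the series' design text, separate samples of a tissue came from separate mice. The study's own account names fewer animals than there are splenic libraries. Several splenic titles share a number and differ by a letter, as do treated GBM titles 70_a and 70_b, and 73_a and 73_b. Where libraries of a group share an animal, the p-values within spleen and within GBM are too small. Those between tissues and for the interaction can be too small as well. All groups were tumor-bearing, the study used C57BL/6 mice, no group received a single antibody, and the labels give neither age nor sex. Levels are in TPM, a transcript's length-scaled share of its library, so a TPM can fall because other RNA rose. In these bulk libraries fewer cells with a transcript and less transcript per cell cannot be told apart.

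The sort label was checked against marker genes. *Foxp3*, the lineage factor of Treg cells, was above 1 TPM in all 27 libraries and ranged from 21.5 to 440.4 TPM, and all 7 T and Treg cell markers were detected in every group. Other marker lists were detected too. Summed levels reached 960 TPM for B cell markers in spleen IgG2a and 312 TPM for erythroid markers in treated spleen. They reached 171 TPM for neuron and glia markers in GBM IgG2a and 67.9 TPM for CD8 T and NK markers in treated spleen. *Cd8b1* reached 36.3 TPM in treated GBM. The part of such RNA in the receptor levels was not tested. A pair of GBM IgG2a libraries stood apart and touch most of the results below. Of the GBM IgG2a libraries, 1 had 7702 genes above 1 TPM, the fewest of all, against 10175 to 17460 in the other 26, and is called the sparse library below. Library 79_a had a summed level of 6743 TPM over 15 macrophage and microglia markers, against 82.0 to 316 TPM in the other 4 GBM IgG2a libraries, and among treated GBM libraries 73_a reached 2768 TPM. Across groups those 15 markers were all detected in at least 1 library. Called differences that use the GBM IgG2a libraries, where a value is given, are shown with and without 79_a and the sparse library. The part of these features in the results was not tested.

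Lipid mediator receptors sit in the plasma membrane and read locally made lipids. Prostanoids come from arachidonic acid through cyclooxygenases, LPA is released from lysophospholipids by the secreted enzyme autotaxin, and S1P is made by sphingosine kinases and is abundant in blood and lymph. The thromboxane receptor couples mainly to the Gq and G12/13 proteins that raise calcium and act on the cytoskeleton, the prostaglandin E2 receptors EP2 and EP4 and the prostacyclin receptor couple to Gs and raise cyclic AMP, and the LPA and S1P receptors use several G proteins. In T cells cyclic AMP is known for damping activation, and S1P receptors are known for guiding exit from lymphoid organs.

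The genes lie on 5 chromosomes of the mouse genome (build GRCm38, which the study calls mm10). *Tbxa2r* is at chr10:81328731-81335172 and *S1pr4* on the other strand of the same chromosome at chr10:81497747-81500132. *Lpar5* is at chr6:125067920-125082472, *Ptgir* at chr7:16906490-16910905, *Ptger2* at chr14:44988195-45003820, *Lpar6* at chr14:73237895-73243294 and *Ptger4* at chr15:5206661-5244187. All 7 are annotated as protein coding. *Lpar6* lies wholly inside *Rb1*, which runs on the opposite strand, and the exons of *Ptger2* and *Ptger4* overlap genes on the opposite strand, so that reads of these 3 genes and of their partners cannot be told apart where the exons meet in a protocol that does not mark strand, as Smart-Seq2 does not. *Tbxa2r*, *Lpar5*, *Ptgir* and *S1pr4* overlapped no other annotated gene.

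The promoter windows of *Tbxa2r*, *Lpar5* and *S1pr4* are shown because these 3 receptors had the largest differences between the GBM groups. Each runs from 250 bases before to 50 bases after a RefSeq transcript start (GRCm38.p6), is written in the direction of the gene, and carries in capitals each match to 1 of 9 motifs searched on both strands. *Tbxa2r* and *Lpar5* each have 2 such starts, of which the one nearest the annotated start of the gene is printed. The windows are chr10:81328453-81328752 on the plus strand for *Tbxa2r*, chr6:125067670-125067969 on the plus strand for *Lpar5* and chr10:81500088-81500387 on the minus strand for *S1pr4*.
Tbxa2r: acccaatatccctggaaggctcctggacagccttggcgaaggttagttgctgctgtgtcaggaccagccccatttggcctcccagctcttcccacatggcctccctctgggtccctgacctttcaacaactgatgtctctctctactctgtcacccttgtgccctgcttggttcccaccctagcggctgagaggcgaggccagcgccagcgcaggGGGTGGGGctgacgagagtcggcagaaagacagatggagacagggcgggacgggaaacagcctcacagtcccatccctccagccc
Lpar5: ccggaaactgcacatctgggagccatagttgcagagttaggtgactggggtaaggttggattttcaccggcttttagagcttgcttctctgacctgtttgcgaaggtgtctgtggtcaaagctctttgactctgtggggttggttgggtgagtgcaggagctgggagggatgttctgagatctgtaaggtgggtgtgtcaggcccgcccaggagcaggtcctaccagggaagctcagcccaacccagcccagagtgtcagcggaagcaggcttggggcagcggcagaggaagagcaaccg
S1pr4: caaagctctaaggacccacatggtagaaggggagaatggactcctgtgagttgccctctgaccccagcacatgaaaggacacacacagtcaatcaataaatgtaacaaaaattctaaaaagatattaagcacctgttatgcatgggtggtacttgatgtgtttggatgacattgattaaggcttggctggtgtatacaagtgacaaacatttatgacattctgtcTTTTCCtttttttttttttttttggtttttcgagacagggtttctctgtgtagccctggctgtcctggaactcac

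The motifs were AP-1 TGANTCA, T-box AGGTGTGA, kappa B GGGANTTCC, NFAT GGAAAA, Runx TGTGGTT, ETS ACAGGAAG, Klf CCNCACCC, CRE TGACGTCA and forkhead TGTTTAC, and N stands for any base. The printed *Tbxa2r* window held a Klf match on the opposite strand, and its other window, which starts upstream, held a Klf match too. Klf letters were found in 16.6% of all 32851 windows of this length. *S1pr4* and *Ptger2* each held an NFAT match on the opposite strand, found in 23.4% of all windows. The windows of *Lpar5*, *Lpar6*, *Ptger4* and *Ptgir* held none of the 9 letter strings, and no motif was present in both *Tbxa2r* and *Lpar5*. In base composition the printed *Tbxa2r* and *Lpar5* windows had 61.7% and 57.3% GC with 9 and 7 CpG, while *S1pr4* had 41.0% GC and 1 CpG, against a median of 52.7% GC and 7 CpG over all windows.

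*Tbxa2r*, the receptor for the platelet agonist thromboxane A2, was the highest of the 7 receptors by median TPM in splenic Treg cells and was low in GBM Treg cells of IgG2a mice. The 5 GBM IgG2a libraries held 3.21, 13.4, 16.1, 0 and 0 TPM (76_a, 77_a, 78_a, 79_a and the sparse library). The 7 GBM libraries after αPD1 + αGITR held 37.2, 40.8, 33.0, 31.4, 30, 52.5 and 41.9 TPM (70_a, 70_b, 72_a, 73_a, 73_b, 74_a and 80_a). All 7 treated libraries lay above all 5 IgG2a libraries, and the mean went from 6.54 ± 7.66 TPM (SD, n = 5) to 38.1 ± 7.81 TPM (SD, n = 7). The difference was 3.26 in log2(TPM + 1), and it was 1.93 without library 79_a and the sparse library, with the groups still apart. This contrast chose the gene. Of all 7848 genes that passed the filter on low values, 1.77% had treated GBM libraries wholly above the IgG2a libraries.

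In spleen the same gene was spread widely. After IgG2a the 7 splenic libraries had a lowest level of 0.17, a median of 133.6 and a highest of 216 TPM, and after αPD1 + αGITR the 8 splenic libraries had 3.81, 78.3 and 156 TPM. Libraries 79_a and 79_c of the spleen IgG2a group held 0.25 and 0.17 TPM, while the other 5 of that group held at least 51.2 TPM. The groups overlapped, and the treatment difference of 0.64 in log2(TPM + 1) (SE 1.04) was within the spread between libraries (limma, adjusted p = 0.9997). The 95% interval of that difference, −1.50 to 2.78, holds changes of over 2-fold in both directions. An exact permutation test, two-sided, gave p = 0.655 where the smallest p it can reach is 0.0001554. The direction was not stable, since leaving out 79_a or 79_c turned the difference to −0.16 or −0.17. With splenic libraries of the same label number averaged, an alternative chosen after seeing the data, it was −1.28.

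By group median the order of *Tbxa2r* was spleen IgG2a (133.6 TPM), spleen αPD1 + αGITR (78.3 TPM), GBM αPD1 + αGITR (37.2 TPM) and GBM IgG2a (3.21 TPM). Of these neighbours the splenic groups overlapped each other, and so did the treated spleen and treated GBM groups, although 6 of 8 treated splenic libraries lay above every treated GBM library. The coefficient of variation was 20.5% in treated GBM, against 64.7% in treated spleen, 83.9% in IgG2a spleen and 117% in IgG2a GBM. In log2(TPM + 1), GBM minus spleen was −3.09 after IgG2a (−1.75 without library 79_a and the sparse library) and −0.46 after αPD1 + αGITR. These tissue contrasts share the GBM libraries with the choice of the gene and are given as values.

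Platelet markers were summed because platelets also carry the thromboxane receptor. The summed level of 11 platelet and megakaryocyte markers ranged from 0.03 to 13.8 TPM in GBM IgG2a, from 0.05 to 13.7 TPM in treated GBM, from 2.74 to 85.8 TPM in spleen IgG2a and from 4.02 to 163 TPM in treated spleen. Of the 11 markers, 10 were above 0 in at least 1 GBM IgG2a library and 9 in at least 1 treated GBM library. *Gp6* was above 0 in every GBM library, at up to 0.87 TPM after IgG2a and 0.26 TPM after treatment. *Ppbp*, an abundant platelet transcript, was listed at 0 in all 12 GBM libraries. In spleen its medians were also low, at 0.31 TPM after IgG2a and 0.125 TPM after treatment. The part of platelet RNA in the *Tbxa2r* levels of either tissue was not tested.

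**Figure D1:**
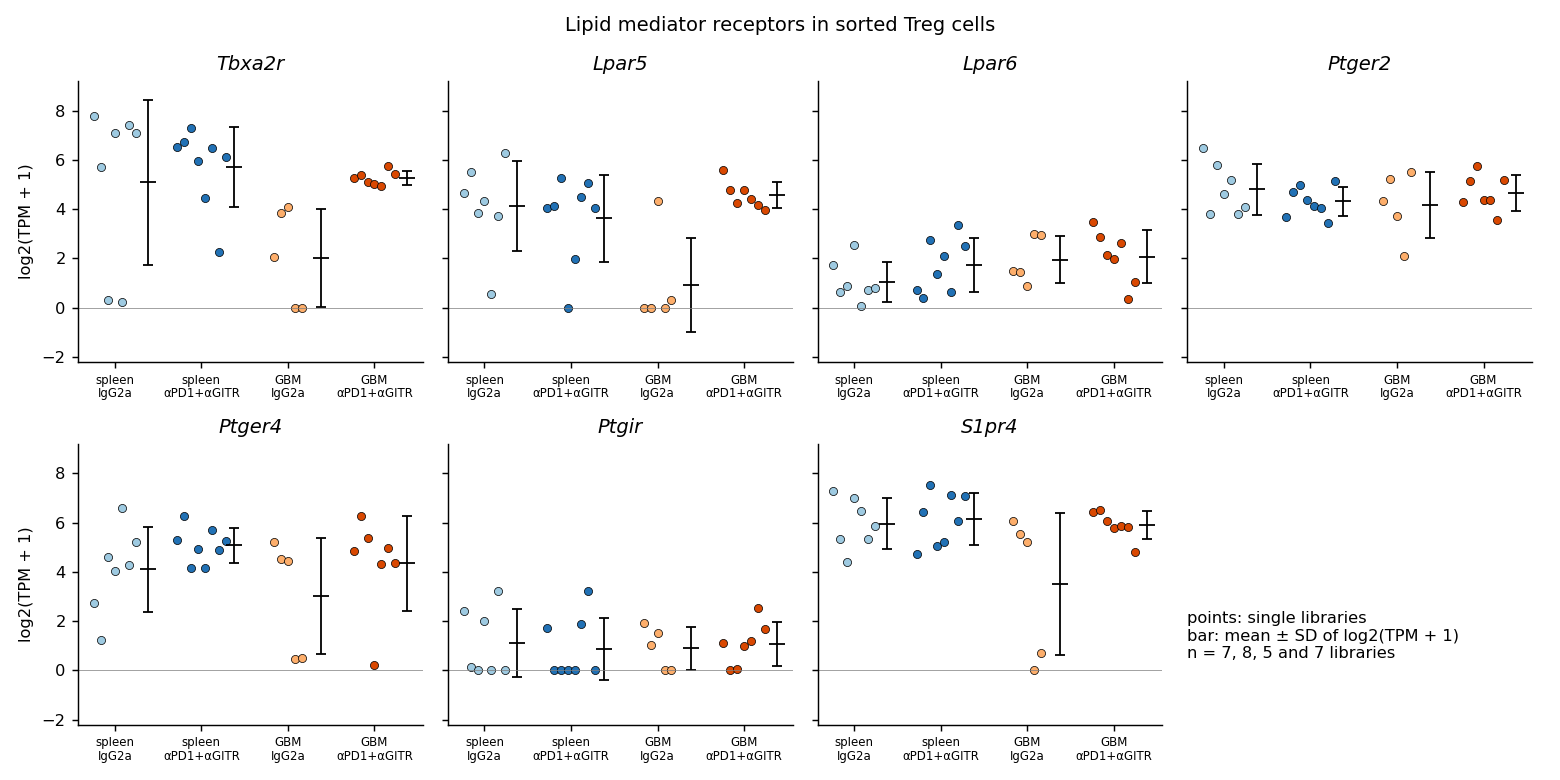
Level of each of the 7 receptors as log2(TPM + 1), with a point for each library and a bar at the mean ± SD of each group (spleen IgG2a n = 7, spleen αPD1 + αGITR n = 8, GBM IgG2a n = 5, GBM αPD1 + αGITR n = 7). *Tbxa2r* points of treated GBM lie between 30 and 52.5 TPM and above all GBM IgG2a points, and no *Ptgir* point is above 8.28 TPM and no *Lpar6* point above 10.03 TPM.

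*Lpar5*, an LPA receptor coupled to Gq and G12/13 proteins, was the other gene chosen for its rise in GBM. The GBM IgG2a libraries held 0, 0, 19.0, 0 and 0.25 TPM, so that a single library, 78_a, carried almost all of the group's signal. The treated GBM libraries held 47.5, 26.7, 18.3, 26.5, 20.5, 16.9 and 14.8 TPM in the order given for *Tbxa2r*. Of these, 4 of 7 lay above library 78_a and all 7 lay above the other 4 IgG2a libraries. The mean was 3.84 ± 8.45 TPM (SD, n = 5) after IgG2a and 24.4 ± 11.1 TPM (SD, n = 7) after αPD1 + αGITR. The difference was 3.64 in log2(TPM + 1), 4.49 without library 78_a and 3.13 without library 79_a and the sparse library. It was 5.96 with a pseudocount of 0.1 and 1.42 with a pseudocount of 10, and 3 of the 5 IgG2a libraries were listed at 0.

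In splenic Treg cells *Lpar5* overlapped between treatments. The lowest, median and highest levels were 0.45, 19.2 and 77.1 TPM after IgG2a and 0, 16.0 and 37.6 TPM after αPD1 + αGITR. The difference of −0.50 in log2(TPM + 1) (SE 0.85) was within the spread (limma, adjusted p = 0.9997), with a 95% interval from −2.23 to 1.24. The exact permutation test, two-sided, gave p = 0.606. Median levels stood in the order treated GBM (20.5 TPM), spleen IgG2a (19.2 TPM), treated spleen (16.0 TPM) and GBM IgG2a (0 TPM). The first 3 of these overlapped one another, and GBM IgG2a, at 0 to 19.0 TPM, overlapped the others too.

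Whether the receptors shared libraries was read from joint levels. Both *Tbxa2r* and *Lpar5* were above 10 TPM in 5 of 7 spleen IgG2a libraries, 5 of 8 treated spleen libraries, 1 of 5 GBM IgG2a libraries and 7 of 7 treated GBM libraries, 18 of 27 in all. Only *Tbxa2r* was above 10 TPM in 3 libraries, only *Lpar5* in 2, and neither in 4, of which 3 were GBM IgG2a libraries. The Spearman correlation between the genes was 0.44 over 27 libraries, and 0.45 once group means were taken out. Both genes were picked for their rise in GBM, so the GBM counts follow from the choice. *S1pr4*, which was not chosen for a rise, correlated at 0.46 with *Tbxa2r* and 0.52 with *Lpar5*. With group means taken out these were 0.45 and 0.31. The points share depth and sort, so the correlations are a description.

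**Figure D2:**
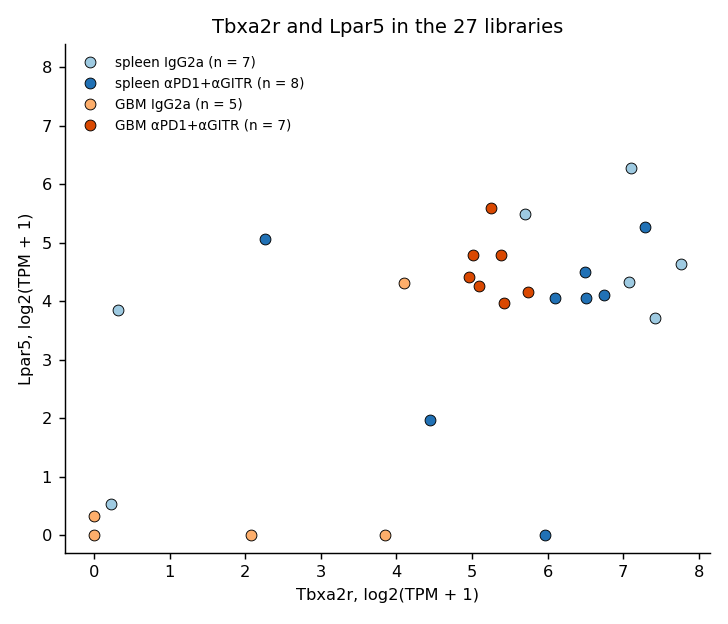
*Lpar5* against *Tbxa2r* in log2(TPM + 1), with a point for each of the 27 libraries coloured by group. The 7 treated GBM libraries sit together with both genes above 10 TPM, and 4 of the 5 GBM IgG2a libraries lie along the bottom of the plot with *Lpar5* at or below 0.25 TPM.

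*S1pr4*, an S1P receptor largely restricted to hematopoietic cells, was among the 2 highest of the 7 receptors by median in every group. The GBM IgG2a libraries held 65.4, 46.0, 36.0, 0 and 0.65 TPM, and the treated GBM libraries held 85.5, 89.9, 65.7, 53.2, 56.6, 55.8 and 27.03 TPM. The groups overlapped, with 3 treated libraries above all of the IgG2a libraries and the IgG2a library 79_a and the sparse library below all treated ones. The treatment difference in GBM was 2.38 in log2(TPM + 1) (SE 0.90, 95% interval 0.50 to 4.27). It passed the study's threshold of p under 0.05 and more than 2-fold, with p taken here as unadjusted. It did not pass adjustment over all genes (limma, adjusted p = 0.159), and the exact permutation test, two-sided, gave p = 0.0354. Without library 79_a it was 1.51, without the sparse library 1.69 and without both 0.29, and each of these missed the threshold. In the 3 remaining IgG2a libraries *S1pr4* was at 36.0 to 65.4 TPM, inside the range of the treated libraries.

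Spleen gave *S1pr4* levels from 20.3 to 157 TPM (median 57.2) after IgG2a and from 25.6 to 183 TPM (median 75.3) after αPD1 + αGITR. The groups overlapped and differed by 0.20 in log2(TPM + 1) (SE 0.64, limma, adjusted p = 0.9997). Between tissues after IgG2a, *S1pr4* was lower in GBM by a log2 value of −2.45 (SE 0.96) and passed the study's threshold (limma, adjusted p = 0.359), and the exact permutation test, two-sided, gave p = 0.0581. That difference was −0.35 without library 79_a and the sparse library. Between treated tissues it was −0.26 (SE 0.51, limma, adjusted p = 0.692). The treatment difference in GBM exceeded that in spleen by 2.19 (SE 1.10, limma, adjusted p = 0.422) and by 0.09 without both libraries.

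*Ptger2*, which encodes the EP2 receptor, had similar medians in all groups. Its median was 23.2 TPM in spleen IgG2a, 18.1 TPM in treated spleen, 18.9 TPM in GBM IgG2a and 19.5 TPM in treated GBM, and all 4 ranges overlapped. In the sparse GBM IgG2a library it was the highest of the 7 receptors, at 44.5 TPM, and in library 79_a it was at 3.34 TPM. The treatment difference was −0.50 in spleen (SE 0.62, 95% interval −1.77 to 0.77) and 0.49 in GBM (SE 0.64, 95% interval −0.84 to 1.82), with limma adjusted p = 0.9997 and 0.634. The GBM value was 0.25 without library 79_a and the sparse library. Tissue differences were −0.64 after IgG2a and 0.35 after treatment, and neither passed the threshold.

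*Ptger4*, which encodes the EP4 receptor, had the widest spread of the 7 receptors among treated GBM libraries on the log2 scale. The GBM IgG2a libraries held 36.0, 22.3, 20.5, 0.36 and 0.41 TPM, and the treated GBM libraries held 28.1, 76.96, 40.2, 0.18, 19.0, 30.4 and 19.7 TPM. The low treated library was 73_a, the one with 2768 TPM of macrophage and microglia markers. The GBM difference was 1.32 (SE 1.01, limma, adjusted p = 0.423), it was 2.01 and passed the threshold without library 73_a, and it was −0.38 without the IgG2a library 79_a and the sparse library. In spleen, levels ran from 1.34 to 96.6 TPM (median 18.6) after IgG2a and from 16.8 to 76.1 TPM (median 33.3) after αPD1 + αGITR. That difference was 0.97 (SE 0.71, limma, adjusted p = 0.9997).

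*Lpar6* and *Ptgir* stayed low. *Lpar6*, an LPA receptor, exceeded 10 TPM in 1 of 27 libraries (10.03 TPM in treated GBM library 70_a) and had medians of 0.72, 2.43, 1.82 and 3.43 TPM in spleen IgG2a, treated spleen, GBM IgG2a and treated GBM. *Ptgir* was highest at 8.28 TPM, in a treated spleen library, and was listed at 0 in 3 of 7, 5 of 8, 2 of 5 and 1 of 7 libraries of those groups. Neither had a mean above 10 TPM in any group, so neither passed the filter. The treatment difference in GBM was 0.12 for *Lpar6* and 0.19 for *Ptgir*, and exact permutation tests, two-sided, gave p = 0.836 and 0.716.

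**Figure D3:**
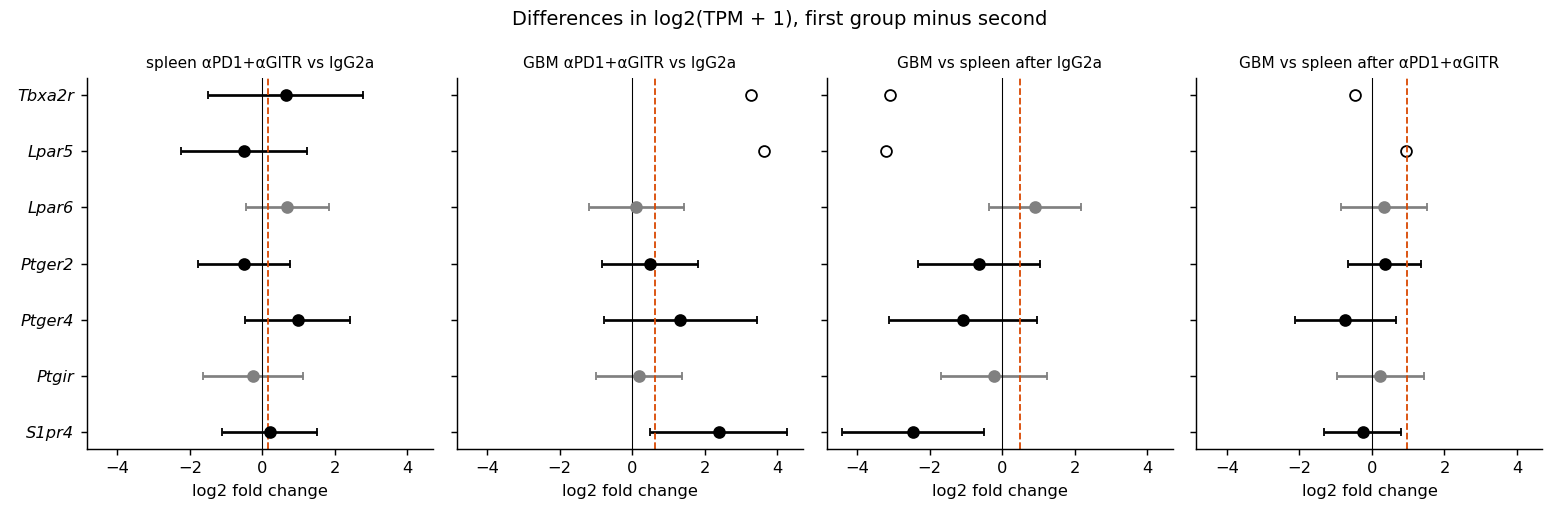
Differences of the 7 receptors in log2(TPM + 1) for 4 comparisons, with 95% limma intervals. Open circles have no interval because *Tbxa2r* and *Lpar5* were chosen on these libraries, grey points did not pass the filter on low values, and the dashed line is the median over all genes tested. The intervals of *S1pr4* exclude 0 in GBM after treatment and between tissues after IgG2a.

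Counted over members, 0 of the 5 receptors that passed the filter in spleen (*Tbxa2r*, *Lpar5*, *Ptger2*, *Ptger4* and *S1pr4*) were called at the study's threshold, where 2.53% of 6634 genes were (168 genes, 99 higher and 69 lower, or 73 higher and 166 lower with TMM-type factors), and 0% of genes had an adjusted p under 0.05 with limma. In GBM, *S1pr4* was called among *Ptger2*, *Ptger4* and *S1pr4*, while 21.7% of 7848 genes were called (1700 genes, 1318 higher and 382 lower) and 0% after adjustment, the lowest adjusted p being 0.0947. The median over all genes in that comparison was 0.62 in log2(TPM + 1). Quantile normalization moved this median to 0.13, the split of calls to 521 higher and 602 lower, and *S1pr4* to 1.43, below the threshold. After IgG2a, 9.93% of 7380 genes differed between tissues (563 higher and 170 lower in GBM, median 0.48, or 375 and 489 with quantile normalization, median 0.04) and 0.569% after adjustment, and of the 3 receptors *S1pr4* was called. After treatment 40.2% of 7506 genes differed between tissues (2546 higher and 474 lower in GBM, median 0.95, or 974 and 1059 with quantile normalization, median 0.15) and 17.5% after adjustment, and of *Ptger2*, *Ptger4* and *S1pr4* 0 were called. For the interaction of tissue and treatment 12.2% of 8687 genes had an unadjusted p under 0.05 (591 positive and 465 negative, or 384 and 525 with quantile normalization), 0% passed adjustment, and of the same 3 receptors 0 were called.

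Other receptors of the same families were counted from lists. Of the 6 LPA receptors, *Lpar5* was the 1 that passed the filter in spleen. Of the 5 S1P receptors, 3 passed the filter in GBM, and all 3 rose after αPD1 + αGITR at the study's threshold, where 21.7% of all genes were called. *S1pr1* and *S1pr2* passed the filter only through the treated group, in which they are high, so the filter favoured a rise and the count is a description. Of these 3, 2 were called with quantile normalization, with a pseudocount of 10 and without either library 79_a or the sparse library, and 1 was called with library weights, with the filter in every group and without both libraries. *S1pr2*, which couples to G12/13 proteins, had the largest difference of these 3, from a median of 0.09 TPM (0.02 to 12.3 TPM, n = 5) to 19.7 TPM (8.45 to 58.2 TPM, n = 7). Its difference was 3.24 (SE 0.79, limma, adjusted p = 0.0977, or 0.416 without the filter) and 2.41 without library 79_a and the sparse library, which still passed the threshold. *S1pr1*, the receptor for lymphoid exit, went from a median of 7.54 TPM (0 to 8.44 TPM) to 14.5 TPM (8.33 to 35.2 TPM), a difference of 2.12 (SE 0.76, limma, adjusted p = 0.147, or 0.511 without the filter). Without both libraries it was 0.87 and missed the threshold. After IgG2a, *S1pr1* was lower in GBM than in spleen by a log2 value of −2.60 (SE 0.94, limma, adjusted p = 0.301, or 0.801 without the filter, which it passed only through spleen), and by −1.35 without both libraries, which missed the threshold.

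**Figure D4:**
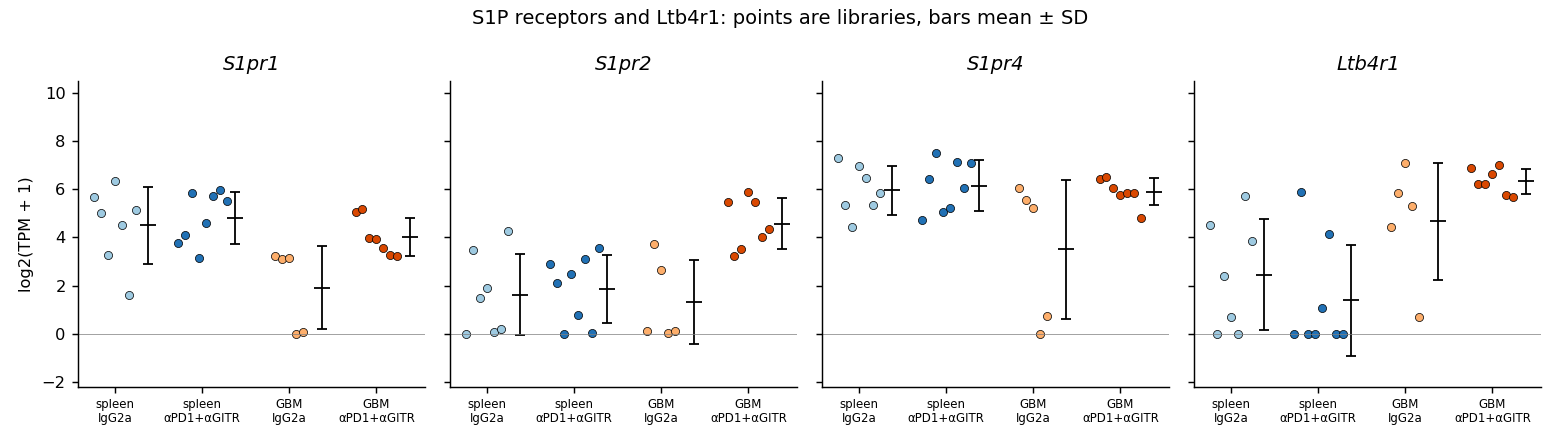
Levels of *S1pr1*, *S1pr2*, *S1pr4* and the leukotriene B4 receptor gene *Ltb4r1* as log2(TPM + 1), with a point for each library and a bar at the mean ± SD of each group. GBM IgG2a library 79_a and the sparse library give the lowest *S1pr4* and *S1pr1* points, and all 7 treated GBM libraries hold at least 8.45 TPM of *S1pr2*.

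Of the 9 prostanoid receptors, 3 passed the filter in GBM besides *Tbxa2r*, and 0 of these were called, beside 21.7% of all genes. In spleen 4 passed and 0 were called, beside 2.53% of all genes, and between tissues 3 passed and 0 were called, beside 9.93% after IgG2a and 40.2% after treatment. Of 17 further lipid mediator receptors 7 passed it in GBM, and *Ltb4r1*, a leukotriene B4 receptor, was the one called, by 1.66 (SE 0.78, limma, adjusted p = 0.216), beside 21.7% of all genes. That call was lost under 16 of 23 alternatives, and the value was 0.55 without library 79_a and the sparse library. After IgG2a, 2 of 6 of these further receptors that passed the filter were called higher in GBM than in spleen, beside 9.93% of all genes. They were *Cysltr2*, which passed the filter only through GBM, and *Ltb4r1*. *Ltb4r1* was higher by 2.22 (limma, adjusted p = 0.499), and by 3.34 without library 79_a and the sparse library (limma, adjusted p = 0.369). Its call was lost under 15 of 24 alternatives. Between treated tissues *Ltb4r1* was higher in GBM, at a median of 73.9 TPM (50.7 to 128 TPM, n = 7) against 0 TPM (0 to 58.2 TPM, n = 8), a difference of 4.95 (SE 0.79, limma, adjusted p = 0.000396). *S1pr2* was also higher in treated GBM than in treated spleen, by 2.71 (SE 0.66, limma, adjusted p = 0.0109). In this comparison *Ltb4r1* and *S1pr2* passed the filter only through treated GBM. In the limma fit without a filter the adjusted p was 0.00685 for *Ltb4r1* and 0.0573 for *S1pr2*.

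Genes that make and remove these lipids were counted in the same way. Of the eicosanoid genes that passed the filter in GBM, 1 of 3 rose (*Ptges3*, a prostaglandin E synthase that is also a cochaperone, by 1.62, SE 0.77, limma, adjusted p = 0.220), and of the LPA and S1P metabolism genes 0 of 4 were called, beside 21.7% of all genes. The *Ptges3* call was lost under 17 of 23 alternatives, with values from 0.60 to 2.11 leaving out 1 library at a time and 0.16 without library 79_a and the sparse library. In spleen 0 of 3 and 0 of 3 were called, beside 2.53% of all genes. Between treated tissues 2 of 3 eicosanoid genes were called higher in GBM. Of 5 LPA and S1P metabolism genes, 2 were called higher and 2 lower. Of all genes 40.2% were called and 17.5% passed adjustment. *Sphk1*, the kinase that makes S1P, was lower in GBM by a log2 value of −2.47 (SE 0.82, limma, adjusted p = 0.0410), and *Asah1*, the acid ceramidase that supplies sphingosine, was higher by 2.58 (SE 0.64, limma, adjusted p = 0.0120). *Sphk1*, *Asah1* and the other called genes of their list, *Plpp1* and *Plpp2*, each passed the filter only through the tissue in which they are high. In the limma fit without a filter the adjusted p was 0.161 for *Sphk1* and 0.0596 for *Asah1*.

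Downstream of the receptors, 1 of 8 G protein genes rose with treatment in GBM (*Gng2*, by 1.96, SE 0.75), as did 1 of 8 cyclic AMP branch genes (*Pde4d*, a phosphodiesterase, by 1.53, SE 0.64) and 2 of 8 shut-off genes (*Rgs19* by 1.45, SE 0.63, and *Arrb2*, which encodes β-arrestin 2, by 1.15, SE 0.52). None of these passed adjustment in limma (adjusted p from 0.161 to 0.203), beside 21.7% of all genes called at the study's threshold. Under 23 alternatives the call was lost in 6 for *Gng2*, 11 for *Pde4d*, 10 for *Rgs19* and 11 for *Arrb2*. Without library 79_a and the sparse library *Gng2* was 0.60, *Pde4d* 0.82 and *Rgs19* 0.96, which missed the threshold, and *Arrb2* was 1.53, which passed it. At the study's threshold in spleen *Gna15*, a Gq family subunit of blood cells, rose by 2.82 (SE 0.75, limma, adjusted p = 0.9997) and *Adcy3*, an adenylyl cyclase, fell by 1.66 (SE 0.76, limma, adjusted p = 0.9997), and the other lists gave 0 calls, beside 2.53% of all genes. The *Adcy3* call was lost under 14 of 26 alternatives and the *Gna15* call under 1, and each gene passed the filter only through the group in which it is high. Between tissues after IgG2a, 3 of 8 G protein genes, 2 of 8 cyclic AMP branch genes and 1 of 8 shut-off genes were called higher in GBM. Of all genes 9.93% were called and 0.569% passed adjustment. The G protein genes, *Gna13*, *Gna15* and *Gnb1*, passed the filter only through GBM, so the counts are a description. *Gna15* was higher by 3.72 (limma fit without a filter, adjusted p = 0.749), and by 4.55 without library 79_a and the sparse library. *Rgs16*, which shortens G protein signals, was higher in GBM by 4.29 (SE 0.89, limma, adjusted p = 0.0127) and *Crem*, a cyclic AMP responsive factor, by 3.57 (SE 0.85, limma, adjusted p = 0.0354). Without library 79_a and the sparse library *Rgs16* was 3.92 and *Crem* 3.47 (limma, adjusted p = 0.136 and 0.135), and both still passed the study's threshold. Both passed the filter only through GBM, and in the limma fit without a filter the adjusted p was 0.0702 for *Rgs16* and 0.147 for *Crem*. After treatment *Crem* was higher in GBM by 4.19 (SE 0.66, limma, adjusted p = 0.000364, or 0.00479 without the filter), and 7 of 9 G protein genes, 4 of 8 cyclic AMP branch genes and 4 of 8 shut-off genes were called higher in GBM, beside 40.2% of all genes. Of these calls *Gng2*, *Gnb1*, *Pde4d*, *Pde4a* and *Crem* passed the filter only through GBM, where they are high, so the counts are a description.

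Genes whose levels ran most like the chosen receptors were taken by the Spearman correlation over 27 libraries among 8686 other genes. For *Tbxa2r* they were *Fam26f* (0.718), *Filip1l* (0.706), *Mical3* (0.680), *Bmp7* (0.678) and *Fbxl18* (0.645). For *Lpar5* they included *Kcnab2* (0.766), *Hnrnpu* (0.756), *Smarcc2* (0.739) and *Armc7* (0.733). With group means taken out, *Bmp7* ranked 5 for *Tbxa2r* and *Smarcc2* ranked 1 for *Lpar5*, and the other genes named here fell outside the leading 5. *Fam26f* had group medians of 36.8, 46.7, 1.99 and 23.7 TPM in spleen IgG2a, treated spleen, GBM IgG2a and treated GBM.

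The summed TPM of the 7 receptors was set against features of each library. It was 10.6 TPM in GBM IgG2a library 79_a and 52.5 TPM in the sparse library, against 106 to 128 TPM in the other 3 libraries of that group and 135 to 275 TPM in treated GBM. The choice of *Tbxa2r* and *Lpar5* raises the treated sums, and over the other 5 receptors those 3 libraries held 71.4 to 125 TPM and treated GBM held 76.7 to 208 TPM, which overlap. Over these 5 receptors library 79_a held 10.6 TPM and the sparse library 52.3 TPM. Treated GBM library 73_a, second in macrophage and microglia markers, held 135 TPM. Over all 27 libraries single receptors followed the number of detected genes weakly, with the Spearman correlation from −0.20 for *S1pr4* to 0.11 for *Ptgir*.

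**Figure D5:**
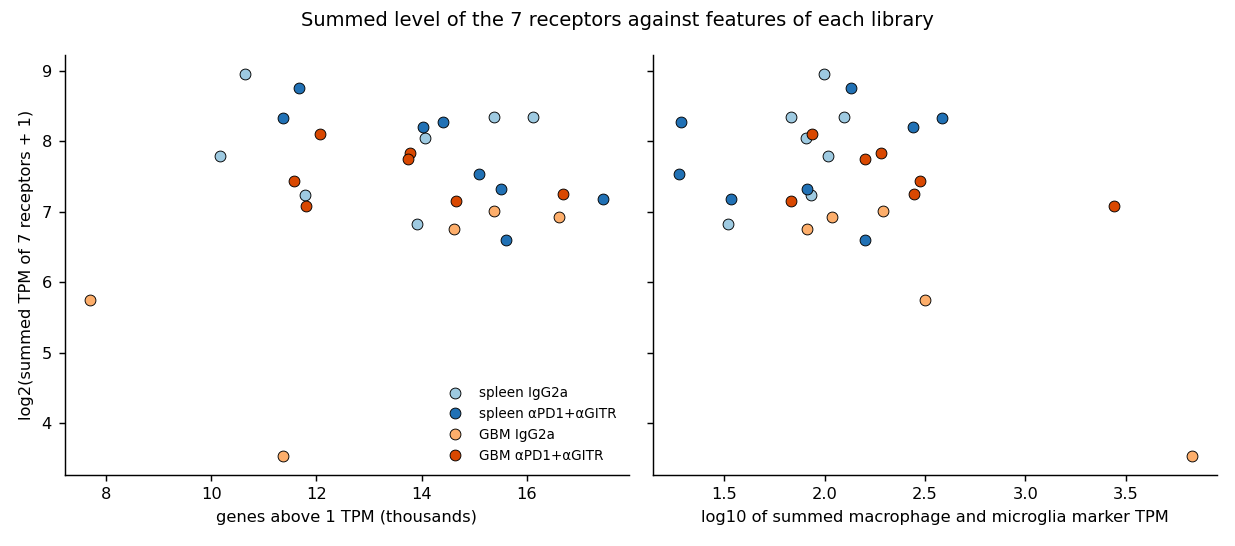
Summed TPM of the 7 receptors, as log2(TPM + 1), against the number of genes above 1 TPM (left) and the log10 of the summed TPM of 15 macrophage and microglia markers (right), with a point for each library coloured by group. The lowest points are the GBM IgG2a library 79_a (10.6 TPM) and the sparse library (52.5 TPM).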

How the data were processed

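From Smart-Seq2 libraries of sorted Treg cells the authors mapped reads with Tophat (build mm10) and estimated TPM by RSEM; versions and annotation are not given in the sources used here. The deposited table holds TPM with 1 added to each value, so 1 was subtracted. It has 53801 features, and read depth is unknown, so no counting intervals are given. It names 27 of the 28 labelled samples; 1 column without a name was left out, and treated spleen has 8 of 9 samples. Groups came from the labels. The 7 members and all lists were chosen with earlier results of these data known. Every gene whose mean exceeded 10 TPM in 1 or more of the groups compared was fitted with limma 3.58.1 (R 4.3.3, eBayes with trend, two-sided, Benjamini-Hochberg over all genes) on log2(TPM + 1); fold changes on this scale understate changes of low genes. A call is an unadjusted p under 0.05 and more than 2-fold, and for the interaction p under 0.05. Single members also got exact permutation tests of the mean log2 difference. *Tbxa2r* and *Lpar5* were compared between groups by a test only in spleen. Fitted values of genes below the filter come from a fit without it. Named genes were the 7 members, up to 6 called genes per list by smallest p (some left out here for space), and the 5 genes most like each chosen receptor. A gene list and a gene that these rules select are not reported here. Promoter windows came from RefSeq (7 of 7 members matched), and positions from the GRCm38 annotation. Alternatives were other pseudocounts, filters, scalings, weights, covariates and left-out libraries. The fit was tested on simulated data.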

Additional observations from a re-analysis of the deposited data

Results flagged for a closer look

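Within groups, 4 of 28 combinations of receptor and group held a library whose gap to its nearest neighbour was large for the group's range, where chance gives about 1 in 20 for normally spread values. The 28 include *Tbxa2r* and *Lpar5* in the GBM groups on which they were chosen, and the *Lpar5* values are given as a description. The rate for skewed TPM with values at 0, as here, was not measured, and all 4 libraries were at the high end. *Lpar5* was 18.96 TPM in GBM IgG2a library 78_a, where the next library held 0.25 TPM, and 47.49 TPM in treated GBM library 70_a, where the next held 26.67 TPM. *Ptger4* was 96.63 TPM in spleen IgG2a library 79_c, where the next held 36.44 TPM. *Ptgir* was 8.28 TPM in treated spleen library 74_a, where the next held 2.69 TPM.

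*S1pr2* had a treatment difference that was larger in GBM than in spleen by 3.01 in log2(TPM + 1) (SE 1.14, limma interaction term, unadjusted p = 0.0123, adjusted p = 0.320), and by 2.18 without GBM IgG2a library 79_a and the sparse library, which missed the threshold. *S1pr2* passed the filter on low values only through treated GBM, the group that makes this difference, so the filter favoured it, and in the limma fit without a filter the adjusted p was 0.816.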

How the results depend on the processing

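All values here are in log2(TPM + 1) or counts of receptors called, and unless said otherwise the cause of a change was not tested. In spleen 0 receptors were called under all 26 alternatives. In GBM the 1 call (*S1pr4*) became 0 with quantile normalization, with library weights and without GBM IgG2a library 79_a and the sparse library together (each by itself gives 0 too), and ranged from 0 to 2 leaving out 1 library at a time. Between tissues after IgG2a it became 0 with weights and without both libraries (0 to 1 leaving out 1 library). The interaction gave 1 call (*S1pr4*) with a pseudocount of 0.1, TMM-type factors, rescaling without the 10 highest features or detected genes as covariate (0 to 1 leaving out 1 library).

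Directions that turned were these. With TMM-type factors *S1pr4* in spleen was −0.09, *Lpar6* in GBM −0.32 and *Ptger2* between treated tissues −0.08. With rescaling *Lpar6* in GBM was −0.01 and *Ptger2* between treated tissues −0.01. With quantile normalization *Ptger2* between treated tissues was −0.30 and the *Ptger4* interaction −0.49. With weights *Ptger4* between IgG2a tissues was 0.32 and its interaction −1.05. Averaging splenic libraries with the same label number, chosen after seeing the data, gave *Tbxa2r* −1.28 and *Ptgir* 0.06. Leaving out both libraries, also chosen after seeing the data, gave *Ptger4* −0.38 and *Ptgir* −0.41 in GBM, 0.61 and 0.38 between IgG2a tissues, and interactions of −1.35 (*Ptger4*), −0.15 (*Ptgir*) and 0.11 (*Lpar6*).

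Leaving out 1 library at a time, spleen values ranged from −0.17 to 1.13 for *Tbxa2r*, −1.09 to 0.02 for *Lpar5*, −0.60 to 0.09 for *Ptgir* and −0.06 to 0.42 for *S1pr4*. GBM values ranged from −0.15 to 0.40 for *Lpar6*, −0.02 to 0.82 for *Ptger2* and −0.05 to 0.45 for *Ptgir*. *Ptgir* ranged from −0.48 to 0.13 between IgG2a tissues and −0.01 to 0.57 between treated tissues, and the *Ptger4* interaction from −0.29 to 1.04.

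Deviations from the group means correlated at −0.305 to 0.182 in 19 pairs of a splenic and a GBM library with the same label number. In 72 pairs with different numbers they correlated at −0.188 to 0.214. These ranges overlap, so they cannot tell whether libraries of the same number share a mouse. With the replicate block the receptors called were 1 between IgG2a tissues and 0 between treated tissues, as without it, and all genes called were 736 and 2284 against 733 and 3020. Over all genes, the 168 calls in spleen became 78 with a pseudocount of 10, 591 without a filter, 57 with the filter in every group, 268 with weights and 269 with 4 groups in one fit. The 1700 calls in GBM became 970, 935 and 1123 with a pseudocount of 10, the filter in every group and quantile normalization, and 1125 without both libraries. The 0 genes past adjustment in GBM became 263 with weights and 79 with detected genes as covariate. They became 103 without treated library 73_b and 21 without IgG2a library 79_a. The 733 calls between IgG2a tissues became 1168 without a filter, 293 with it in every group, 1225 with weights and 1100 with 4 groups. The 3020 between treated tissues became 1719 with a pseudocount of 10 and 1842 with the filter in every group. The 1056 for the interaction became 2556 without a filter, 441 with it in every group and 461 without both libraries. Without the sparse library by itself the GBM calls were 1133 and the interaction calls 635. Depth is unknown, so levels near 0 TPM cannot be told from missed transcripts.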
